A study of Mus musculus with 24 samples.

Results

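The 10 genes described here encode enzymes that make or clear retinoic acid: Adh1, Adh7, Rdh5 and Rdh19, which oxidize retinol or are named for doing so; Dhrs3, which reduces retinal; Aldh1a1, Aldh1a2 and Aldh1a3, which oxidize retinal; and Cyp26a1 and Cyp26b1, which clear retinoic acid. They were chosen by name, with earlier results of these data known. All 10 were among the 27985 genes tested, each through 1 probe with 1 spot on the array. Total RNA from 24 whole kidneys of male mice, labelled young adult and given in the study's methods an age of about weaning, was labelled with Cy3 and hybridized to 1-color Agilent arrays. The 6 control kidneys came from mgb+/+ mice, and the 18 others from mgb-/- (megabladder) mice, which form an atonic bladder and hydronephrosis, a widening of the renal pelvis. Ultrasound had graded the mgb-/- kidneys by how much parenchyma remained: 7 were mild, 5 moderate and 6 severe. Every hydronephrotic kidney was mgb-/- and every control was mgb+/+, so the genotype and the obstruction cannot be told apart. The labels number the kidneys but do not say whether any came from the same mouse, so p-values measure the spread between kidneys.

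Retinoic acid is made from vitamin A in a pair of oxidations. Alcohol dehydrogenases and short-chain retinol dehydrogenases turn retinol into retinal, a step that Dhrs3 runs backwards, and the Aldh1a retinal dehydrogenases turn retinal into retinoic acid. Retinoic acid then binds the nuclear receptors Rara, Rarb and Rarg, which act with Rxr partners, and enzymes of the Cyp26 family degrade it. In the embryonic kidney retinoic acid from stromal cells sustains Ret expression and branching of the ureteric bud, and Cyp26a1 is a classical retinoic acid-induced gene.

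Levels are given as log2 of the array's processed signal over that array's 75th percentile, so 0 is the 75th percentile of all probes, and they are compared between kidneys and not between genes. A gene passed a comparison at a Benjamini-Hochberg adjusted p under 0.05 from limma. The 75th percentile lay between 496 and 968 signal units, and 55.6% to 70.8% of probes were well above background on each array. All 8 proximal tubule and all 6 distal nephron markers were well above background on every array. Adrenal gland markers stood apart in mild replicate 4 and moderate replicate 1, with summed levels of 198 and 190 times the 75th percentile, against 0.318 to 0.608 in the controls. Lesser adrenal signal went beyond them, as the median sum of the mild group was 2.09, above the highest control. The medians of the other hydronephrotic groups were 0.648 (moderate) and 0.587 (severe). Only mild replicate 4 and moderate replicate 1 are called kidneys with adrenal markers below. Limma results that change without those kidneys are given with the values without them. The correlations were not repeated with both of those kidneys left out.

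Upstream sequence is shown for 2 pairs of enzymes that carry out the same step and whose log2 changes in mgb-/- kidneys had opposite signs, Adh1 with Adh7 and Cyp26a1 with Cyp26b1. The 250 bases before the start site come from RefSeq, build GRCm38.p6, and are written 5′ to 3′ on the strand of the gene. Adh1 lies at chr3:138277335-138277584 on the plus strand, Adh7 at chr3:138217523-138217772 on the plus strand, Cyp26a1 at chr19:37697558-37697807 on the plus strand and Cyp26b1 at chr6:84593811-84594060 on the minus strand. Capitals mark a direct repeat of AGNTCA, found on either strand with a spacer of 1, 2 or 5 bases. This pattern stood for the unit that retinoic acid receptors bind, and other forms of that unit were not searched for.
Adh1: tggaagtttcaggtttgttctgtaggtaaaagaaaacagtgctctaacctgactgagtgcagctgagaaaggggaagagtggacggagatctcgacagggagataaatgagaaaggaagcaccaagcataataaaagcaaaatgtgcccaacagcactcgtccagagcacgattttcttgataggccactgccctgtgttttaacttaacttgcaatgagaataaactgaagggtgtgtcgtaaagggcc
Adh7: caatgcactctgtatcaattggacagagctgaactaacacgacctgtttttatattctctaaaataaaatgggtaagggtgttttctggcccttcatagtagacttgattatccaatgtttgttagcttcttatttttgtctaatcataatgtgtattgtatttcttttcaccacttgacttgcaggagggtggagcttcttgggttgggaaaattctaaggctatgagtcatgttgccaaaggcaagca
Cyp26a1: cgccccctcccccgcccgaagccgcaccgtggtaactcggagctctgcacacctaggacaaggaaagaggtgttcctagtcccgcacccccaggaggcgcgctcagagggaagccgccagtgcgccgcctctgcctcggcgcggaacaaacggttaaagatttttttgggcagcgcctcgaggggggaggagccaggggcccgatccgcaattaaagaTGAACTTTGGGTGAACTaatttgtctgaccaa
Cyp26b1: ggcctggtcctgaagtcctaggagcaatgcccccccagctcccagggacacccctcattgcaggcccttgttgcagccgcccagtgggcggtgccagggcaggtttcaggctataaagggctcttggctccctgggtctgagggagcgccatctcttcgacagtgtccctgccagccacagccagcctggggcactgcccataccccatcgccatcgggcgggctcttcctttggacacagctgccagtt

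Windows were found for 8 of the 10 genes, and Rdh19 and Aldh1a3 had none. The repeat with a spacer of 5 was present in the Cyp26a1 window, on the strand opposite to the gene and from 32 to 16 bases before the start site. It was present in no other window of these genes, and in 65 of all 32851 RefSeq windows of the same length (0.198%). With a spacer of 1 it was found in 60 of all windows (0.183%) and with a spacer of 2 in 28 (0.0852%), none of them a window of these genes. A GC content of 38% in the Adh7 window and of 44.8% in the Adh1 window lay below the median of 52.4% over all windows, and the Cyp26a1 and Cyp26b1 windows, at 61.6% and 64.8%, lay above it.

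Comparing all mgb-/- with control kidneys asks which steps of the pathway are altered in congenital obstruction. Of the 10 enzymes 6 passed, where 13.3% of all genes did. Adh7, Rdh19, Cyp26b1 and Aldh1a1 rose, and Adh1 and Rdh5 fell. With a change of at least 2-fold also required, 5 of the 10 remained, against 3.09% of all genes. Both counts include Adh7, whose probe was kept through its signal in mgb-/- kidneys and whose fold is not given. The 10 enzymes were chosen with earlier results of these data known, so neither count is an independent result. The median log2 change of the 10 was 0.37, with 5 above and 5 below 0, beside 0.01 for all genes. In whole-kidney RNA, fewer cells of a type and less RNA per cell cannot be told apart.

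**Figure D1:**
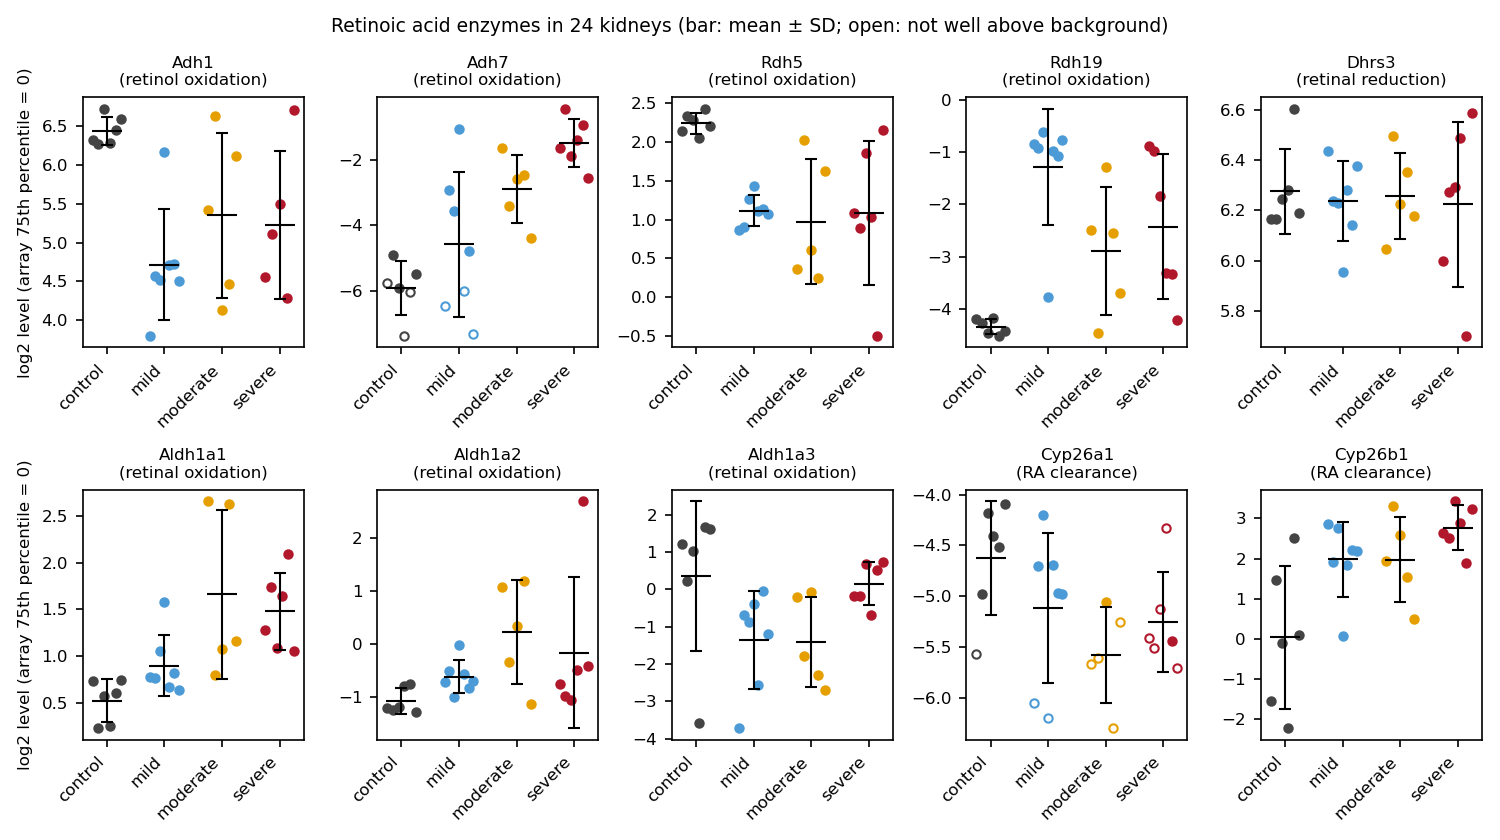
Log2 level (y axis, array 75th percentile = 0) of each of the 10 enzymes in every kidney, by group on the x axis; the bar and whiskers are the mean and SD, and open points were not well above background. Adh1 and Rdh5 sit lower and Rdh19 higher in most mgb-/- kidneys than in any control, Adh7 is highest in severe kidneys, and the y axes differ between panels.

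Among the retinol-oxidizing enzymes, Adh1, the class I alcohol dehydrogenase, lay at 6.27 (lowest), 6.39 (median) and 6.73 (highest) in the 6 controls and at 3.79, 4.57 and 6.17 in the 7 mild kidneys. The moderate kidneys lay at 5.42, 6.63, 4.13, 4.46 and 6.12, and the severe ones at 4.28 (lowest), 5.11 (median) and 6.71 (highest). Of 17 mgb-/- kidneys with a value, 15 lay below every control; the spot of severe replicate 4 was an outlier and was dropped, so the fit used 23 kidneys. Adh1 fell by 1.39 (SE 0.36, adjusted p = 0.0149), from 6.44 ± 0.18 (SD, n = 6) to 5.05 ± 0.89 (SD, n = 17). Within each of the 3 array slides, which held 2 control and 6 mgb-/- kidneys each, the difference was between -1.73 and -1.06.

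Rdh5, an 11-cis retinol dehydrogenase best known from the retinal pigment epithelium, lay between 2.06 and 2.43 in controls, with a median of 2.25. In mild kidneys it lay between 0.87 and 1.43 (median 1.11), in moderate kidneys at 0.36, 2.03, 0.60, 0.24 and 1.63, and in severe kidneys between -0.50 and 2.15 (median 1.05). All 18 mgb-/- kidneys were below the control mean and 17 below every control. Rdh5 fell by 1.18 (SE 0.26, adjusted p = 0.00704), and the difference within the slides was between -1.28 and -1.03. Adh1 and Rdh5 passed under all 36 alternative settings run for this comparison.

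Adh7, the class IV alcohol dehydrogenase, which is known from stomach and other lining epithelia, was dim in controls: it lay between -7.38 and -4.90 (median -5.84) and was well above background in 3 of 6. In mild kidneys it ranged from -7.32 to -1.04 (median -4.77, 4 of 7 well above background). The moderate kidneys lay at -1.65, -3.42, -2.57, -2.46 and -4.39, and the severe ones between -2.55 and -0.43 (median -1.51). All 5 moderate and all 6 severe kidneys were above every control, as were 4 of 7 mild kidneys. Adh7 rose by 2.84 (SE 0.81, adjusted p = 0.0249), and by 2.22 to 3.34 within the slides. No fold is given, because 3 of the 6 controls were not well above background and the probe was kept through its signal in mgb-/- kidneys. Without control replicate 3 the adjusted p was 0.057 and without control replicate 4 it was 0.0702. The count over all genes also moved there, from 3732 to 1747 and 2294. The size depended on the background treatment: the log2 change was 1.25 after normexp correction and 1.59 in the authors' normalized table, with adjusted p of 0.0362 and 0.0297.

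Rdh19, a short-chain dehydrogenase named as a retinol dehydrogenase, lay within -4.52 to -4.17 in controls (median -4.34). In mild kidneys it lay between -3.78 and -0.62 (median -0.93), in moderate kidneys at -2.49, -4.47, -1.29, -2.54 and -3.69, and in severe kidneys between -4.21 and -0.88 (median -2.58). All 7 mild, 4 of 5 moderate and 5 of 6 severe kidneys were above every control. Rdh19 rose by 2.23 (SE 0.54, adjusted p = 0.0108), which is 4.69-fold, and by 1.86 to 2.54 within the slides; after normexp correction the change was 1.33 (adjusted p = 0.0212). Its SD over mgb-/- kidneys, 1.36, was 9.39 times that of the controls, the widest such ratio of the 10 genes.

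The changes did not extend to all genes at the same loci. In the order of the RefSeq annotation, Adh7 is followed by Adh1, Adh6a, Adh6b, Adh4 and Adh5. Adh6a rose by 0.85 (SE 0.22, adjusted p = 0.0158) and Adh5, which encodes the class III enzyme that also oxidizes formaldehyde adducts, fell by 0.51 (SE 0.16, adjusted p = 0.0398). Adh4 had a change of -0.15 (SE 0.25) and Adh6b was not tested. Rdh19 lies between Rdh16 and Rdh16f2. Rdh16f2 rose by 1.17 (SE 0.27, adjusted p = 0.00845), while Rdh1, Rdh9, Rdh16 and Rdh7 had changes between -0.11 and 0.35 that did not pass. Whether probes for these related genes share signal was not tested.

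Dhrs3, which returns retinal to retinol and is itself induced by retinoic acid in many tissues, had the steadiest level. It lay between 6.17 and 6.60 (median 6.22) in controls and between 5.70 and 6.59 (median 6.26) in all mgb-/- kidneys, and the groups overlapped. The change was -0.04 (SE 0.10, adjusted p = 0.851). Its sign turned under quantile normalization (0.074), with normexp (0.069), in the authors' table (0.061), with array weights (0.0071) and without control replicate 5 (0.029).

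Of the retinal dehydrogenases, Aldh1a1 lay between 0.23 and 0.74 in controls (median 0.59) and between 0.63 and 1.58 in mild kidneys (median 0.77). The moderate kidneys lay at 2.66, 0.79, 1.07, 2.63 and 1.17, and the severe ones between 1.05 and 2.09 (median 1.46). All 18 mgb-/- kidneys were above the control mean, and 16 above every control. Aldh1a1 rose by 0.79 (SE 0.26, adjusted p = 0.0459), and by 0.50 to 1.18 within the slides. This call passed under 18 of 36 settings. It was lost on leaving out any of 14 kidneys (each control, mild 3 and 4, moderate 3 and severe 1 to 5), with adjusted p between 0.0512 and 0.104, and without the 2 kidneys with adrenal markers (0.68, adjusted p = 0.0571). Over all genes 1747 to 4250 passed on leaving out any of those 14, against 3732 with all kidneys.

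Aldh1a2, the retinal dehydrogenase of embryonic mesenchyme, lay between -1.28 and -0.75 in controls (median -1.20), between -1.0 and -0.020 in mild kidneys (median -0.71), and between -1.05 and 2.69 in severe kidneys (median -0.62). The moderate kidneys lay at 1.07, -0.33, 0.33, 1.18 and -1.13. Although 13 of 18 mgb-/- kidneys were above every control, the change of 0.84 (SE 0.40) did not pass (adjusted p = 0.161); with array weights it did (0.66, adjusted p = 0.0395). Severe replicate 5 had the highest level, and without it the severe-against-control change went from 0.91 (adjusted p = 0.194) to 0.34 (adjusted p = 0.461).

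Aldh1a3, the third retinal dehydrogenase, varied most among the controls, at 1.22, 0.23, 1.03, -3.59, 1.68 and 1.62. The mild kidneys lay between -3.72 and -0.044 (median -0.87), the moderate ones at -0.20, -1.79, -0.082, -2.30 and -2.69, and the severe ones between -0.68 and 0.73 (median 0.18). No mgb-/- kidney reached the control median of 1.12, and 15 of 18 were below the control mean. The change of -1.23 (SE 0.66) did not pass (adjusted p = 0.225), but it passed without control replicate 4, the lowest control (-2.02, adjusted p = 0.0319).

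Of the clearance enzymes, Cyp26b1 also varied widely among controls, at -1.53, 1.47, -0.10, -2.22, 2.52 and 0.11. It lay between 0.074 and 2.87 in mild kidneys (median 2.18), at 1.94, 3.31, 2.60, 1.54 and 0.49 in moderate kidneys, and between 1.88 and 3.43 in severe kidneys (median 2.77). All 18 mgb-/- kidneys were above the control mean, and 8 were above every control. Cyp26b1 rose by 2.20 (SE 0.53, adjusted p = 0.0098), which is 4.59-fold, and passed under all 36 settings. The size differed between slides, at 3.73, 0.15 and 2.72, and the mean of the 2 controls on those slides was -1.87, 2.00 and 0.0026.

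Cyp26a1 was near the detection limit. It was well above background in 5 of 6 controls, 5 of 7 mild, 1 of 5 moderate and 1 of 6 severe kidneys. Its levels lay between -5.57 and -4.09 in controls (median -4.46) and between -6.30 and -4.20 in mgb-/- kidneys (median -5.33). The change of -0.67 (SE 0.27) did not pass (adjusted p = 0.0989). Scaling by the array median (-0.82, adjusted p = 0.0434) and the authors' table (-0.32, adjusted p = 0.0411) brought it under the threshold.

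**Figure D2:**
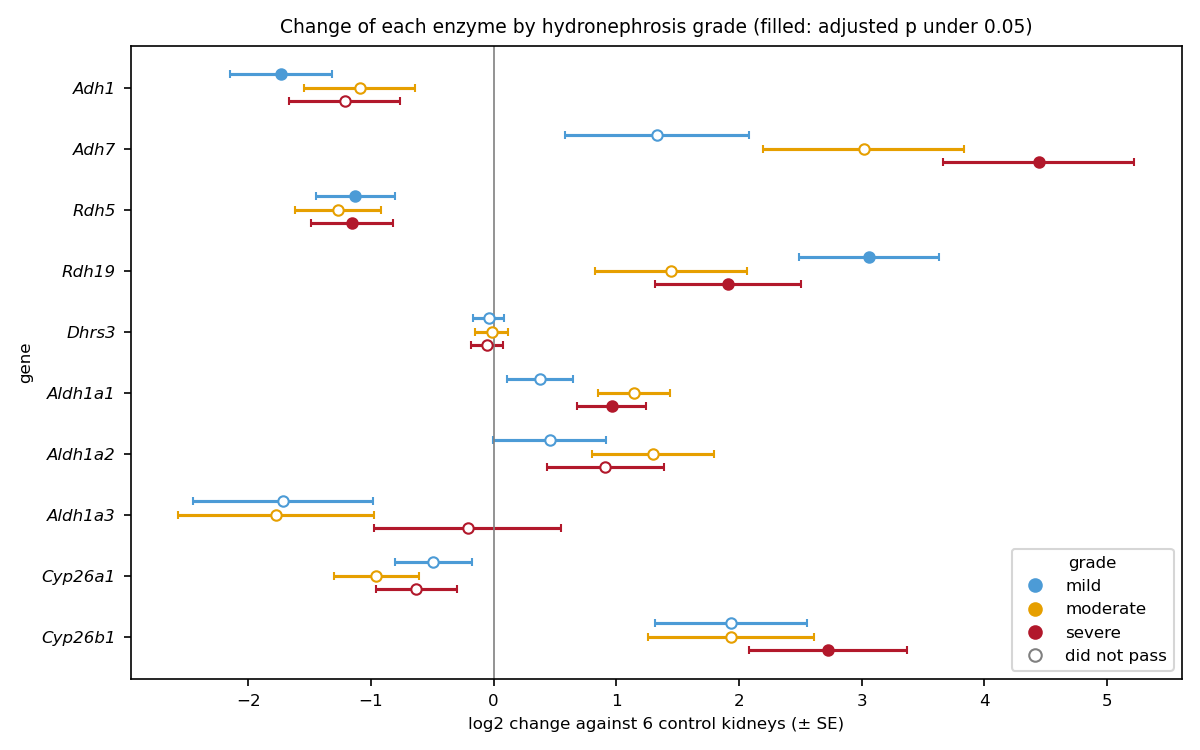
Log2 change against the 6 controls (x axis, with SE) of each enzyme (y axis) in mild, moderate and severe kidneys; filled points passed and open points did not. Adh7 goes from 1.33 in mild to 4.44 in severe kidneys, while Rdh5 lies between -1.27 and -1.13 in all 3 grades.

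The grades were compared with the same controls to ask how the changes relate to the loss of parenchyma. In mild kidneys Rdh19 rose by 3.06 (SE 0.57, adjusted p = 0.00409), and Adh1 and Rdh5 fell by 1.73 (SE 0.41, adjusted p = 0.0176) and 1.13 (SE 0.32, adjusted p = 0.0404). These were 3 of the 10, where 6.02% of all genes passed. The Rdh5 call in mild kidneys was lost on leaving out any of 12 kidneys (each control and each mild kidney but replicate 4), with adjusted p between 0.0614 and 0.0824, and with the slide as a block (-1.09, adjusted p = 0.0548). Leaving out any of those 12 also moved the count over all genes, from 1684 to between 818 and 1259. Cyp26b1 was higher by 1.94 (SE 0.62) and missed the threshold (adjusted p = 0.0662); it passed without control replicate 5 (2.43, adjusted p = 0.019) or mild replicate 4 (2.25, adjusted p = 0.0272), without the 2 kidneys with adrenal markers (2.25, adjusted p = 0.0328), with the slide as a block (2.04, adjusted p = 0.0464), with array weights (2.51, adjusted p = 0.00055) and with the filter on all arrays (adjusted p = 0.0491). Aldh1a3 had a change of -1.72 (adjusted p = 0.17), and of -2.51 without control replicate 4 (adjusted p = 0.0183).

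In severe kidneys 5 of the 10 passed, where 16.1% of all genes did. They include Adh7, whose probe was kept through its signal in mgb-/- kidneys. Adh7 rose by 4.44 (SE 0.78, adjusted p = 0.00142), and by 2.10 after normexp correction or 2.63 in the authors' table. Cyp26b1 rose by 2.73 (SE 0.64, adjusted p = 0.00984), Rdh19 by 1.91 (SE 0.59, adjusted p = 0.0332) and Aldh1a1 by 0.96 (SE 0.28, adjusted p = 0.0262), and Rdh5 fell by 1.16 (SE 0.34, adjusted p = 0.025). For Rdh19 the change was 1.08 after normexp correction (adjusted p = 0.0657) and 1.29 in the authors' table (adjusted p = 0.0611), so that it no longer passed. Aldh1a1 did not pass with median scaling (0.79, adjusted p = 0.117), nor Rdh5 with the severe and control kidneys fitted alone (adjusted p = 0.0702). Adh7 and Cyp26b1 passed whichever kidney was left out. Rdh19 did not pass without any 1 of the controls or without severe 1, 2 or 3 (adjusted p from 0.051 to 0.0878), Aldh1a1 without control 2 or 4 or severe 2 or 5 (0.053 to 0.0618), and Rdh5 without control 3 or severe 2 or 5 (0.0502 to 0.0555). The number that passed was 2 without severe replicate 2 and 3 without control 2, 3 or 4 or severe 5. These settings also moved the count over all genes, from 4508 to 2283 without severe 2 and 3094 without severe 5. Without control 2, 3 and 4 it was 3238, 2435 and 3237. Adh1 had a change of -1.21 (SE 0.45, adjusted p = 0.0688); it passed without mild replicate 4 (adjusted p = 0.0497) or severe replicate 6 (-1.59, adjusted p = 0.011).

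In the 5 moderate kidneys none of the 10 passed by limma, where 1.2% of all genes did. An unadjusted limma p under 0.05 was reached by 9 of the 10, and by 5159 of all 27985 genes. The lowest adjusted p were those of Aldh1a1 (1.14, SE 0.30, adjusted p = 0.0557), Adh7 (3.02, SE 0.82, adjusted p = 0.0643) and Rdh5 (-1.27, SE 0.35, adjusted p = 0.0682). The number that passed was 1 without mild replicate 4, 3 without moderate replicate 2 or 5, 4 without severe replicate 5 and 2 without severe replicate 6; severe and mild kidneys enter through the shared estimate of the spread. These settings also moved the count over all genes, from 336 to 312 without mild 4, 1218 and 1209 without moderate 2 and 5, 1084 without severe 5 and 648 without severe 6. With array weights 5 of the 10 and 3196 of all genes passed. Without moderate replicate 1, 16 of all genes passed, and without the 2 kidneys with adrenal markers 10 did, with 0 of the 10 enzymes among them.

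Between grades none of the 10 passed. In severe against mild kidneys, where 0.586% of all genes passed, 2 of the 10 had an unadjusted limma p under 0.05, as did 3104 of all 27985 genes. Adh7 was higher by 3.11 (SE 0.75, adjusted p = 0.0634), Aldh1a3 by 1.51 (SE 0.73, adjusted p = 0.453) and Aldh1a1 by 0.58 (SE 0.27, adjusted p = 0.436), and Rdh19 was lower (-1.15, SE 0.57, adjusted p = 0.466). The Adh7 difference passed without mild replicate 4 (3.70, adjusted p = 0.0106), the kidney with adrenal markers and the highest mild Adh7 level, without both kidneys with adrenal markers (3.70, adjusted p = 0.0135), and without mild replicate 2 (3.39, adjusted p = 0.0391). None of the 10 passed in moderate against mild kidneys, where 0% of all genes did, or in severe against moderate kidneys, where 0.00715% did. An unadjusted limma p under 0.05 was reached by 3 of the 10 and 1870 of all genes in moderate against mild kidneys. In severe against moderate kidneys 0 of the 10 and 2899 of all genes reached it. The slope over the 3 grades, fitted on the 18 mgb-/- kidneys, was largest for Adh7, at 1.56 per grade (SE 0.40, adjusted p = 0.158). For the slope none of the 10 passed, where 0.232% of all genes did. An unadjusted limma p under 0.05 was reached by 2 of the 10 and 2415 of all genes.

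A set of 4 mgb-/- kidneys differed from the rest in Adh1 and Rdh19. Mild 4, moderate 2, moderate 5 and severe 6 held the highest Adh1 levels, 6.17, 6.63, 6.12 and 6.71, and had Rdh19 at -3.78, -4.47, -3.69 and -4.21. The other 13 kidneys with an Adh1 value lay between 3.79 and 5.49, with Rdh19 between -3.33 and -0.62 in the 14 other kidneys. Those 4 kidneys were also the ones in which 8 male-biased kidney genes, such as Acsm3 and Slco1a1, had a mean level in or near the control range: between 3.25 and 5.00, against 4.19 to 4.92 in controls and -0.46 to 1.57 in the other 14. Since the kidneys fall into separate sets by the male-biased genes, no pooled r is given for these relations. The counts over 60 relations and 45 pairs below do include them. Within the 14, Adh1 with Rdh19 had r = -0.18 (n = 13, permutation p = 0.559, adjusted p = 0.719 over the 45 pairs). Adh1 had r = 0.63 with the male-biased mean (n = 13, permutation p = 0.0212, adjusted p = 0.0706 over 60 relations), Rdh5 r = 0.42 (permutation p = 0.135, adjusted p = 0.271) and Rdh19 r = -0.14 (permutation p = 0.658, adjusted p = 0.806). Of the 8 male-biased genes, 7 fell in mgb-/- against control kidneys, where 8% of all genes did. The study had listed most of the 8 as lower on these same arrays, so this count is not an independent result. The part of the male-biased genes in the changes of Adh1, Rdh5 and Rdh19 was not tested.

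**Figure D3:**
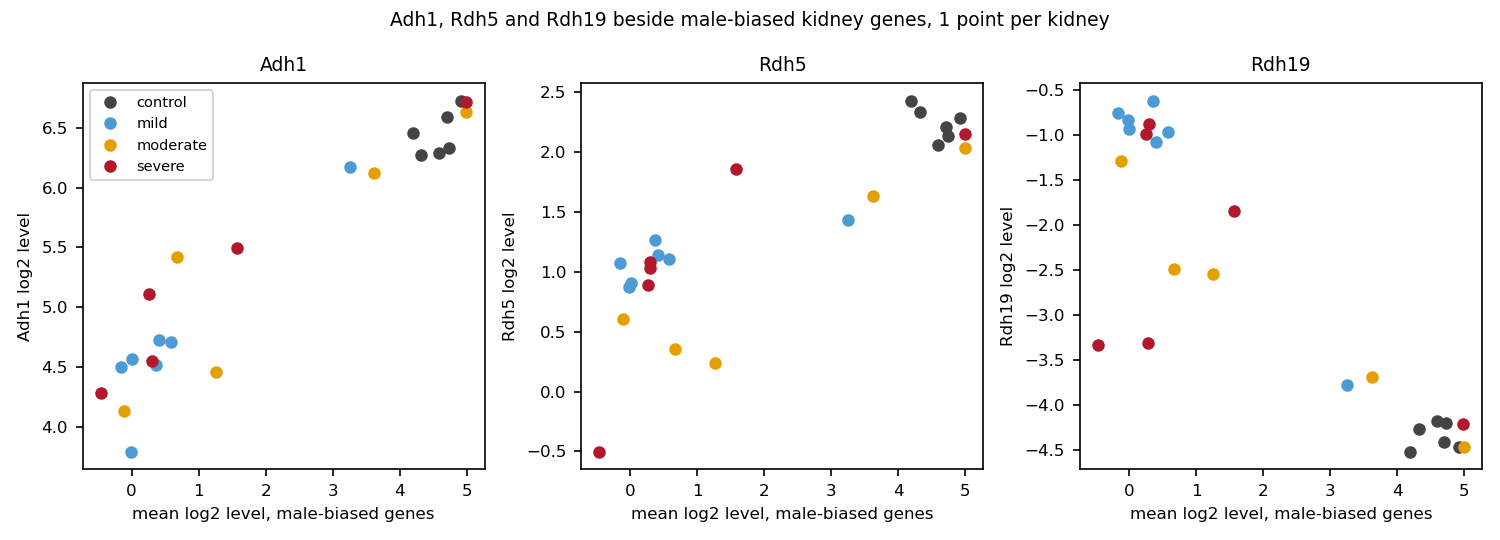
Log2 level of Adh1, Rdh5 and Rdh19 (y axes) against the mean log2 level of 8 male-biased kidney genes (x axis), with 1 point per kidney colored by group. In the 4 mgb-/- kidneys whose male-biased mean is 3.25 or more, Adh1 is at least 6.12 and Rdh19 at most -3.69.

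Adh7 went with urothelial markers (Upk1a, Upk1b, Upk2, Upk3a, Krt5, Krt14, Trp63 and Grhl3). Over the 18 mgb-/- kidneys Pearson's r with their mean was 0.89 (permutation p = 1e-05, the smallest 100000 resamples can give, adjusted p = 0.0003) and Spearman's rho was 0.85 (permutation p = 4e-05, adjusted p = 0.0018). Pearson's r was 0.83 without the 2 kidneys farthest from the median of the marker mean, the rule used for every marker list. It was 0.79 on values centered on each grade's mean, and between 0.84 and 0.99 within the 6 mgb-/- kidneys of each slide. The summed level of the urothelial markers was 15.5 to 26.8 in controls and 15.1 to 65.4 in mild kidneys. It was 23.6 to 59.2 in moderate and 79.4 to 245 in severe kidneys. In severe against control kidneys 7 of the 8 markers passed as higher, where 6.56% of all genes did. The study had listed most of these markers as higher in severe than in mild kidneys on these same arrays. The count of markers that passed is therefore not an independent result. The part of urothelial cells in the Adh7 difference was not tested. Aldh1a3 had r = 0.65 with the same mean (permutation p = 0.0034, adjusted p = 0.0204; rho = 0.60, permutation p = 0.00915, adjusted p = 0.0457), 0.45 without the 2 farthest kidneys and 0.47 on grade-centered values (adjusted p = 0.159). Within slides its r ranged from -0.04 to 0.92, so this relation did not hold on every slide.

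Aldh1a1, Aldh1a2 and Rdh5 went with tubular injury markers (Lcn2, Havcr1, Clu, Timp1 and Krt20). Adh7 had r = 0.58 (adjusted p = 0.0475 by permutation), and 0.45 on grade-centered values (adjusted p = 0.193). Aldh1a2 had r = 0.88 with their mean (permutation p = 4e-05, adjusted p = 0.0006; rho = 0.59, permutation p = 0.0117, adjusted p = 0.0501) and r = 0.72 without the 2 farthest kidneys. Aldh1a1 had r = 0.81 (permutation p = 0.00016, adjusted p = 0.0016; rho = 0.69, permutation p = 0.00179, adjusted p = 0.0179) and r = 0.73 without the 2 farthest kidneys. For Rdh5 r was -0.80 (permutation p = 3e-05, adjusted p = 0.0006; rho = -0.64, permutation p = 0.00537, adjusted p = 0.0358) and -0.62 without those kidneys. Within slides the r lay between 0.76 and 0.96 for Aldh1a2, 0.22 and 0.96 for Aldh1a1, and -0.89 and -0.53 for Rdh5. The injury mean was 2.92 to 5.54 in moderate 1, 3 and 4 and severe 5, and -0.44 to 1.90 in the other mgb-/- kidneys. Aldh1a2 lay at 0.33 to 2.69 in the former and -1.13 to -0.020 in the latter. Rdh5 lay at -0.50 to 0.60 and 0.87 to 2.15. The former were spread over all 3 slides, and moderate 3 and 4 stayed in without the 2 farthest kidneys. The pooled r thus span 2 sets, and r within each set was not computed. The injury markers summed to 61.9 to 87.4 in controls and up to 425 in moderate kidneys, 1 of the 5 passed as higher in mgb-/- kidneys, and their part in these levels was not tested.

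**Figure D4:**
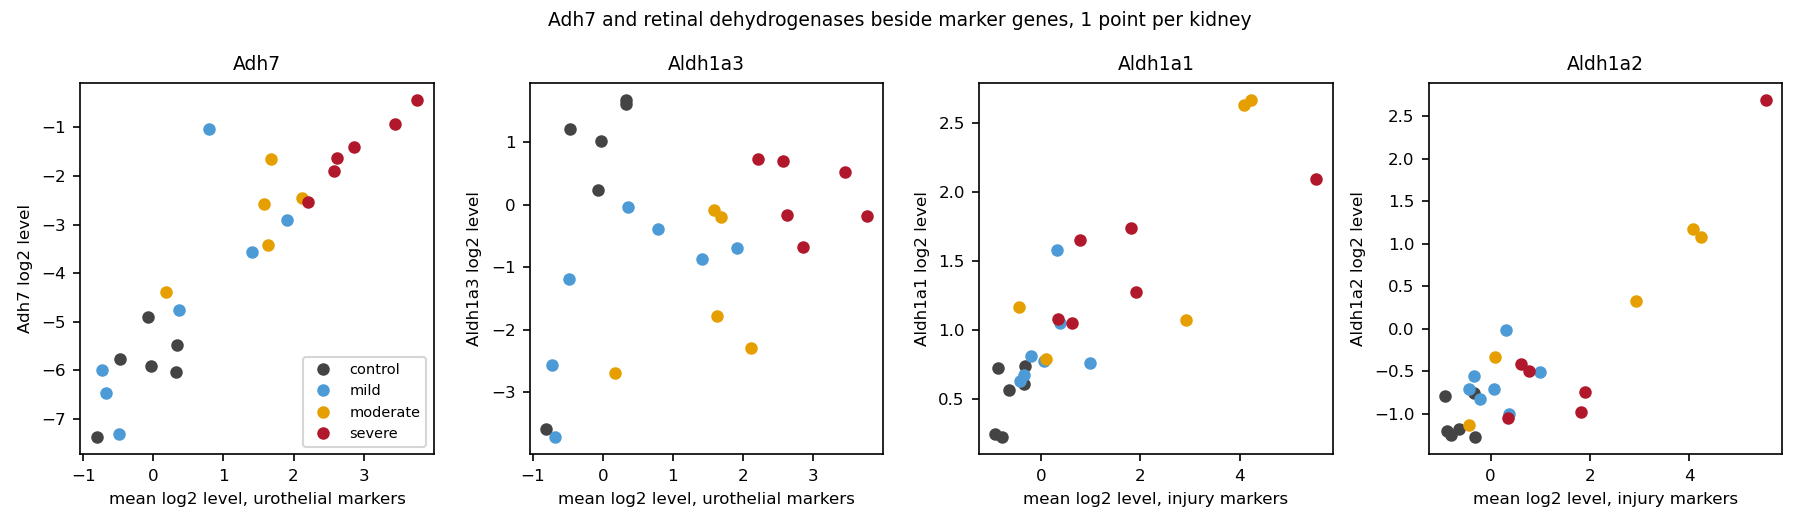
Log2 level of Adh7 and Aldh1a3 against the mean of 8 urothelial markers, and of Aldh1a1 and Aldh1a2 against the mean of 5 tubular injury markers, with 1 point per kidney colored by group. Adh7 climbs with the urothelial mean (r = 0.89 over mgb-/- kidneys) with mild replicate 4 above the others, and the Aldh1a2 level of 2.69 in severe replicate 5 is at the far right of its panel.

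Of 60 relations between an enzyme and a marker list, 14 passed in the permutation tests, and 7 within the 14 kidneys with low male-biased genes. Aldh1a3 with urothelium (adjusted p = 0.062), Adh7 with injury (0.062), Rdh5 with proximal tubule (0.0706) and Aldh1a2 with proximal tubule (0.0706) did not pass there by permutation. Nor did Adh1, Rdh5 and Rdh19 with the male-biased mean. Besides those with the urothelial, injury and male-biased means, the 14 relations included 3 with the mean of the 8 proximal tubule markers and 2 with that of the 7 stromal markers. Adh7 had r = -0.60 with the proximal tubule mean (adjusted p = 0.0337 by permutation), Aldh1a2 r = -0.69 (adjusted p = 0.0465) and Rdh5 r = 0.70 (adjusted p = 0.0147). The rho was -0.79 for Adh7 (adjusted p = 0.0044 by permutation), -0.32 for Aldh1a2 (adjusted p = 0.582) and 0.53 for Rdh5 (adjusted p = 0.0973). Without the 2 farthest kidneys the r were -0.62, -0.40 and 0.45, and on the slide where it was weakest Aldh1a2 had r = -0.079. With the stromal mean Aldh1a2 had r = 0.76 (adjusted p = 0.00189 by permutation) and Rdh5 r = -0.64 (adjusted p = 0.0336), with rho of 0.61 (adjusted p = 0.0457) and -0.55 (adjusted p = 0.0758). Moderate 1, 3 and 4 and severe 5, the kidneys with the highest injury means, also had the highest stromal means, 3.87 to 4.88. The proximal tubule markers summed to 979 to 1145 in controls and 255 to 1058 in severe kidneys, and the stromal markers to 81.5 to 109 and 94.3 to 363. Of the 8 proximal tubule markers 0 passed in mgb-/- against control kidneys by limma, and of the 7 stromal markers 2 rose; their part in these levels was not tested.

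Among the 45 pairs of the 10 enzymes, 6 passed a permutation test after adjustment over the pairs. Besides Adh1 with Rdh19 and with Rdh5, these were Rdh5 with Aldh1a2 (r = -0.75, adjusted p = 0.0112 by permutation; rho = -0.49, adjusted p = 0.308), Aldh1a1 with Aldh1a2 (r = 0.69, adjusted p = 0.0331; rho = 0.35, adjusted p = 0.424), Adh7 with Aldh1a1 (r = 0.65, adjusted p = 0.0331; rho = 0.83, adjusted p = 0.0036) and Adh7 with Aldh1a3 (r = 0.64, adjusted p = 0.0331; rho = 0.55, adjusted p = 0.184). Their unadjusted permutation p were 0.00025, 0.00323, 0.00441 and 0.00438. Without the 2 kidneys farthest from the median of the first gene of a pair, the r of these 4 pairs were -0.66, 0.55, 0.60 and 0.59, and 0 of the 45 pairs passed. For Aldh1a1 with Aldh1a2 this left out moderate 1 and 4 and kept severe 5, the kidney with the highest Aldh1a2 level. The count was 2 without severe replicate 5 and 3 without mild replicate 1. In the 14 kidneys with low male-biased genes only Rdh5 with Aldh1a2 passed (r = -0.93, permutation p = 1e-05, adjusted p = 0.00045). Those 14 include moderate 1, 3 and 4 and severe 5, which held the highest Aldh1a2 and the lowest Rdh5 levels. Within slides Rdh5 with Aldh1a2 had r from -0.89 to -0.32, Adh7 with Aldh1a1 from 0.70 to 0.86, Aldh1a1 with Aldh1a2 from 0.08 to 0.85, and Adh7 with Aldh1a3 from -0.05 to 0.91. Cyp26b1 passed with no other enzyme and with none of the 6 marker lists.

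The genes whose levels were most like each enzyme were ranked by Pearson's r over the arrays after centering on the 4 group means, as a description with no test. For Adh7 they were Ly6d (r = 0.91), Shh (0.88), the secreted hedgehog ligand, and Igdcc4 (0.86). For Adh1 they were Hsd17b11, Itih2 and Hacd2 (each 0.93, over 23 arrays), and for Rdh5 Slc17a3 (0.97), a proximal tubule organic anion transporter, Atp11a (0.97) and Gss (0.96), glutathione synthetase. Rdh19 was nearest to Srpk2 (0.90), Mcoln2 (0.89) and Mro (0.88), and Aldh1a1 to Aldh1a7 (0.89), its close paralog, whose signal may be shared, Lrg1 (0.87) and Flot1 (0.85). Aldh1a2 was nearest to the leukocyte gene Vav1 (0.96), to Il6 (0.96), the interleukin, and to Coro1a (0.95). These r include severe replicate 5, where Aldh1a2 was 2.69 against a severe mean of -0.17, and were not repeated without it. The r of Aldh1a2 with the mean of the 5 leukocyte markers over the mgb-/- kidneys was 0.36, and -0.088 without the 2 farthest kidneys. Aldh1a3 was nearest to Aqp5 (0.85), Gcnt3 (0.83) and Serpina1c (0.83), Dhrs3 to Best3, Mapk8ip1 and Gas6 (each 0.83), and Cyp26a1 to Ski (0.81), Olfr116 (0.75) and AA619741 (0.73). Cyp26b1 was nearest to Ptpru (0.78), to Rarb (0.72), a retinoic acid receptor that retinoic acid itself induces, and to Arl4d (0.68).

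The other genes of the pathway were counted in 3 lists in mgb-/- against control kidneys, where 5.34% of all genes passed as higher and 8% as lower. By grade, these shares were 3.01% and 3.01% in mild, 0.647% and 0.554% in moderate, and 6.56% and 9.55% in severe kidneys. Of 23 other retinoid enzymes 20 were tested, and 0 rose and 3 fell: Bco2, a carotenoid-cleaving enzyme, by 1.06 (SE 0.26, adjusted p = 0.0107), Dhrs4 by 0.84 (SE 0.26, adjusted p = 0.0326), and Adh5. That count is near the 13.3% of all genes that passed. The median log2 change of the 20 was -0.04. Rdh10, the main retinol dehydrogenase of the embryo, had a change of -0.22 (SE 0.11, adjusted p = 0.193). In severe kidneys 1 rose, Aox3 (1.07, SE 0.32, adjusted p = 0.0282), and 5 fell, Bco2 (-1.17, adjusted p = 0.0208) and Dhrs4 (-1.13, adjusted p = 0.0197) by the most; 0 rose and 1 fell in mild kidneys, and none passed in moderate ones.

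Of 15 transport and receptor genes 2 rose in mgb-/- kidneys, namely Rbp4, the plasma retinol carrier (1.52, SE 0.34, adjusted p = 0.00742), and Crabp1, a cytoplasmic retinoic acid-binding protein (1.23, SE 0.33, adjusted p = 0.0182). Rxrb, a receptor partner, fell by 0.40 (SE 0.09, adjusted p = 0.00634). The median over the 15 was 0.13. In mild kidneys 1 rose, Crabp1 (1.43, adjusted p = 0.0314), and in moderate kidneys 1 fell, Rxrb (-0.49, adjusted p = 0.0324). In severe kidneys 5 rose and 1 fell, where 6.56% of all genes rose and 9.55% fell. The largest rises were those of Rbp4 (1.76, adjusted p = 0.0117) and Ttr, its partner in plasma (1.69, adjusted p = 0.0188).

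Of 11 retinoic acid target genes 9 were tested. Gprc5a rose by 0.96 (SE 0.27, adjusted p = 0.0246), Tgm2, tissue transglutaminase, fell by 0.40 (SE 0.10, adjusted p = 0.0163), and the other 7 did not pass. The median was 0.42. Rarb had a change of 0.42 (SE 0.19, adjusted p = 0.138) and Stra6, a retinol transporter, of 1.11 (SE 0.44, adjusted p = 0.0913). In severe kidneys Gprc5a (1.14, adjusted p = 0.028), Crabp2 (0.81, adjusted p = 0.0359) and Rarb (0.73, adjusted p = 0.0253) rose, and Tgm2 fell. Crabp2 and Rarb are also among the severe rises of the transport and receptor genes, so these counts overlap. Crabp2, which carries retinoic acid to the nucleus, was the 1 gene of these 3 lists that passed between severe and mild kidneys (1.14, SE 0.25, adjusted p = 0.0299).

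**Figure D5:**
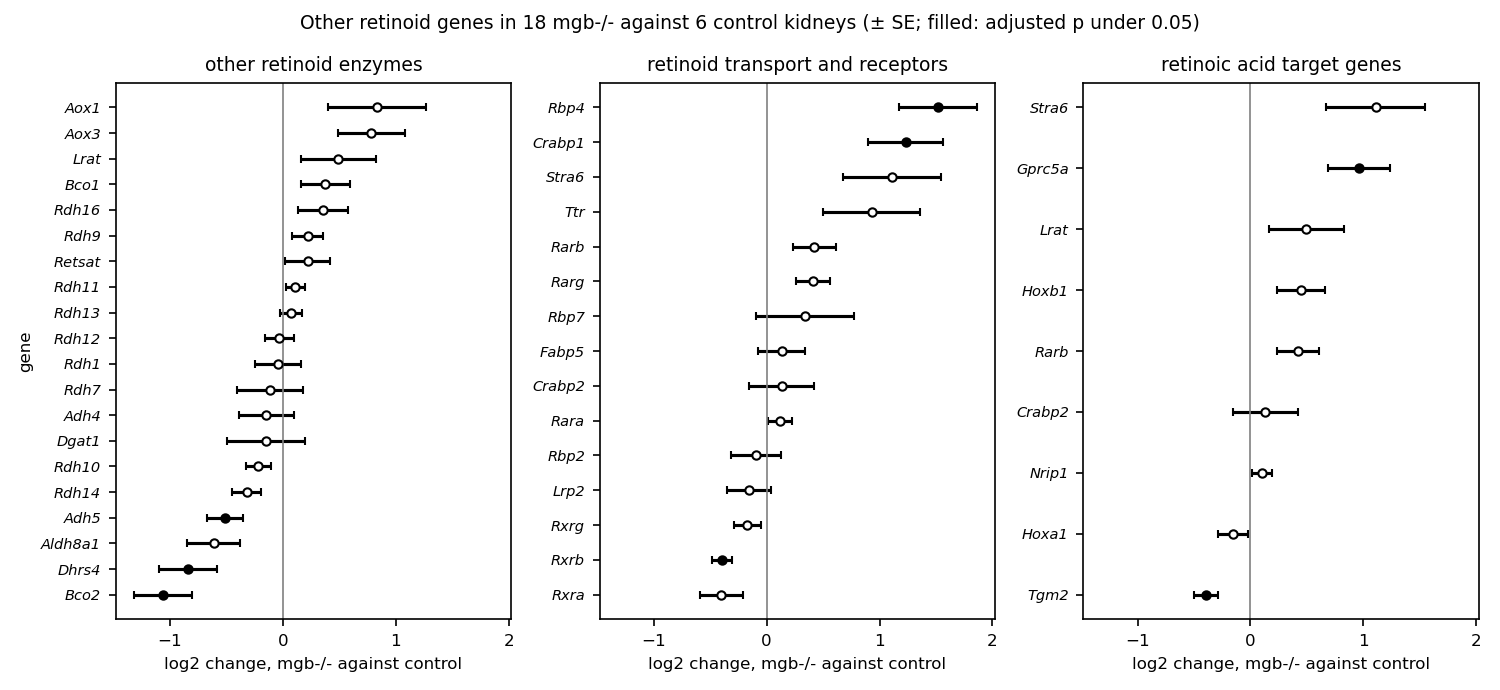
Log2 change in mgb-/- against control kidneys (x axis, with SE) of the tested genes of 3 retinoid lists (y axis, 1 row per gene); filled points passed and open points did not. Rbp4, Crabp1 and Gprc5a are the filled points above 0, and Bco2, Dhrs4, Adh5, Rxrb and Tgm2 those below it.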

How the data were processed

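Single-color Agilent arrays of 24 mouse kidneys were read from the deposited scanner files, whose processed intensity the authors made with Agilent Feature Extraction 10.10, per the submitters' processing notes. A deposited table of intensity normalized by the authors, converted to log2, served as an alternative. Each array was scaled by subtracting, on the log2 scale, the 75th percentile of its spots other than controls. Outlier spots were dropped, a probe had to clear background on 5 or more arrays (38866 of 55681 did), and the brightest probe stood for a gene. No spot was saturated. The number of arrays limits the precision. Limma 3.58.1 in R 4.3.3 tested 27985 genes with Benjamini-Hochberg adjustment, in a fit with mgb-/- against control, a fit with all 4 groups, and a slope on grade. Correlations used 100000 permutations, two-sided, in Python 3.11.15. The code was tested on simulated data. The normexp alternative used median signals with an offset of 50. Besides the 10 enzymes, the text names the 3 genes most like each and, of each list, the 2 largest rises and 2 largest falls that passed. Adh5, Rdh10, Stra6, Rarb, the Adh and Rdh neighbors and Crabp2 between grades fall outside that rule and were chosen after their values were seen. The members and all gene lists were chosen with earlier results of these data known, and 1 list gene is not reported here. Leaving out the 2 kidneys with adrenal markers (summed level over 100) and the 4 kidneys with male-biased genes (mean log2 level over 2) was chosen after seeing the data.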

Additional observations from a re-analysis of the deposited data

Results flagged for a closer look

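In 6 of the 40 sets formed by 10 enzymes and 4 groups, the highest or lowest kidney stood apart from the others of its group by Dixon's test at the 95% level, which chance alone does in about 1 in 20 sets. Mild replicate 4 did so for 3 enzymes: its Adh1 level of 6.17 was the highest of the mild kidneys, and its Rdh19 level of -3.78 and its Cyp26b1 level of 0.074 were the lowest. It is also 1 of the 2 kidneys with adrenal markers and 1 of the 4 mgb-/- kidneys in which male-biased genes stayed high. Severe replicate 5 had an Aldh1a2 level of 2.69, the highest of all severe kidneys, and the highest mean of tubular injury markers. Control replicate 4 had an Aldh1a3 level of -3.59, below the other controls. Control replicate 5 had a Dhrs3 level of 6.60, above the other controls.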

How the results depend on the processing

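Leaving out 1 kidney at a time gave 4 to 6 enzymes passing in mgb-/- against control kidneys, 2 to 4 in mild, 0 to 4 in moderate and 2 to 6 in severe kidneys against controls, 0 to 1 in severe against mild kidneys, 0 to 0 in moderate against mild, severe against moderate and the slope, and 2 to 8 of the 45 pairs. In moderate kidneys, where 0 passed, 1 passed with normexp, the authors' table, the filter on all arrays or the compared groups alone, 3 at an adjusted p under 0.1 and 5 with array weights. In severe against mild kidneys 1 passed with normexp, the authors' table, array weights, an adjusted p under 0.1, or without the 2 kidneys with adrenal markers. Of the pairs 2 passed by Spearman's rho, 0 without the 2 farthest kidneys and 1 without the 4 kidneys with high male-biased genes. By median, kidneys with the same replicate number were not more alike: 33 pairs with the same number had a median r of 0.0039 (from -0.55 to 0.65) and 182 with different numbers 0.0032. Pairs with the same number join kidneys of different groups. The check therefore cannot tell whether kidneys of the same grade came from the same mouse. With the replicate number as a block 1 enzyme passed in mild kidneys in place of 3 (Rdh5 adjusted p = 0.116, Adh1 0.0719), and Rdh5 in severe kidneys (0.0543) and Aldh1a1 in all mgb-/- kidneys (0.0609) did not pass. Signs turned for Dhrs3 in mgb-/- kidneys (0.074 with quantile normalization, 0.069 with normexp, 0.061 in the authors' table, 0.0071 with array weights, and from -0.059 to 0.029 leaving out 1 kidney at a time) and for Aldh1a3 in severe kidneys (0.052 without control 5 and 0.040 without control 6, in a range from -1.0 leaving out 1 kidney at a time). Scaling by the array median moved the median of all genes in mgb-/- kidneys to -0.15 and the split of genes passing to 601 higher and 2801 lower, from 1494 and 2238; Aldh1a1 then had 0.63 (adjusted p = 0.151). Over all genes 3732 passed, 2118 with the replicate block and 8462 with array weights. Adh7 and Cyp26a1 have no value under the filter on all arrays. The causes were not tested. Adh7 and Cyp26a1 lay near background in many kidneys, which limits the precision of their changes.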
